A study of Mus musculus with 6 samples.

Results

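The mitochondrial carriers of the Slc25 family were measured in 3T3-L1, a line of mouse fibroblasts that can differentiate into adipocytes. The members are the probe sets (groups of short oligonucleotides on the array that together read 1 transcript) whose platform annotation names exactly 1 gene with a symbol that starts with Slc25a, together with Ucp2 and Ucp3. This rule found 95 of the 45101 probe sets, for 45 of the 18193 genes that the annotation names alone. Ucp2, Slc25a21, Slc25a43 and Slc25a52 had no probe set naming them alone in the annotation used here and were not analysed here. The study hybridised total RNA of 6 samples of cultured cells, 1 array each: 3 were controls and 3 had received resveratrol, a polyphenol found in grapes. The labels give no dose, no duration and no state of differentiation, and no genotype beyond that of the cell line. Nothing in them says that the 3 samples of a group came from separate cultures, and the spread behind each p-value may be technical.

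Slc25 proteins sit in the inner mitochondrial membrane, a few in the peroxisomal or outer mitochondrial membrane, and move metabolites between the cytosol and the matrix. Most exchange 1 substrate for another: ADP for ATP, citrate for malate, aspartate for glutamate, or acylcarnitine for carnitine. In fat cells the citrate carrier feeds fatty acid synthesis in the cytosol, the acylcarnitine carrier feeds fatty acid oxidation in the matrix, and shuttles built on the aspartate/glutamate carriers bring the reducing power of cytosolic NADH to the respiratory chain. Uncoupling proteins belong to the same family.

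Each value is an intensity on a linear scale, scaled by the authors to the same trimmed mean on every array. Differences are resveratrol minus control on the scale of log2(intensity + 16), which understates changes of dim probe sets. The brightest probe set stands for its gene. A difference passed when its adjusted p in limma, fitted across all 27022 probe sets tested, was under 0.05, and only then is a gene said to have risen or fallen. Intensities of different probe sets cannot be set against each other. The precision of every value is limited by the number of arrays.

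Of the 45 member genes, 40 were bright enough to be tested. Of these, 2 rose and 7 fell with resveratrol. Among all 12650 genes tested 10.6% passed, 5.34% as rises and 5.21% as falls, against 22.5% of the tested members, 5% as rises and 17.5% as falls. The rises were Slc25a12 and Slc25a10, and the falls were Slc25a34, Slc25a23, Slc25a20, Slc25a33, Slc25a51, Slc25a1 and Slc25a36. The median difference over the tested members was -0.03, and over all genes tested 0.02. Counted over probe sets, 3 of 81 tested rose and 9 fell, where 8.22% of all probe sets passed, 3.99% as rises and 4.23% as falls. Without the filter on dim probe sets, or without an intensity trend in the variance, 1 member gene rose and 3 fell. The number of falls depended on single arrays, with 4, 3 and 5 member genes falling without control replicate 1, 2 or 3, and 4, 4 and 3 without resveratrol replicate 1, 2 or 3. The number of rises was 1 without control replicate 2 or 3 or without resveratrol replicate 1 or 2, and 3 without resveratrol replicate 3. Slc25a33, Slc25a34, Slc25a51 and Slc25a12 passed in all 6 of these fits.

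**Figure D1:**
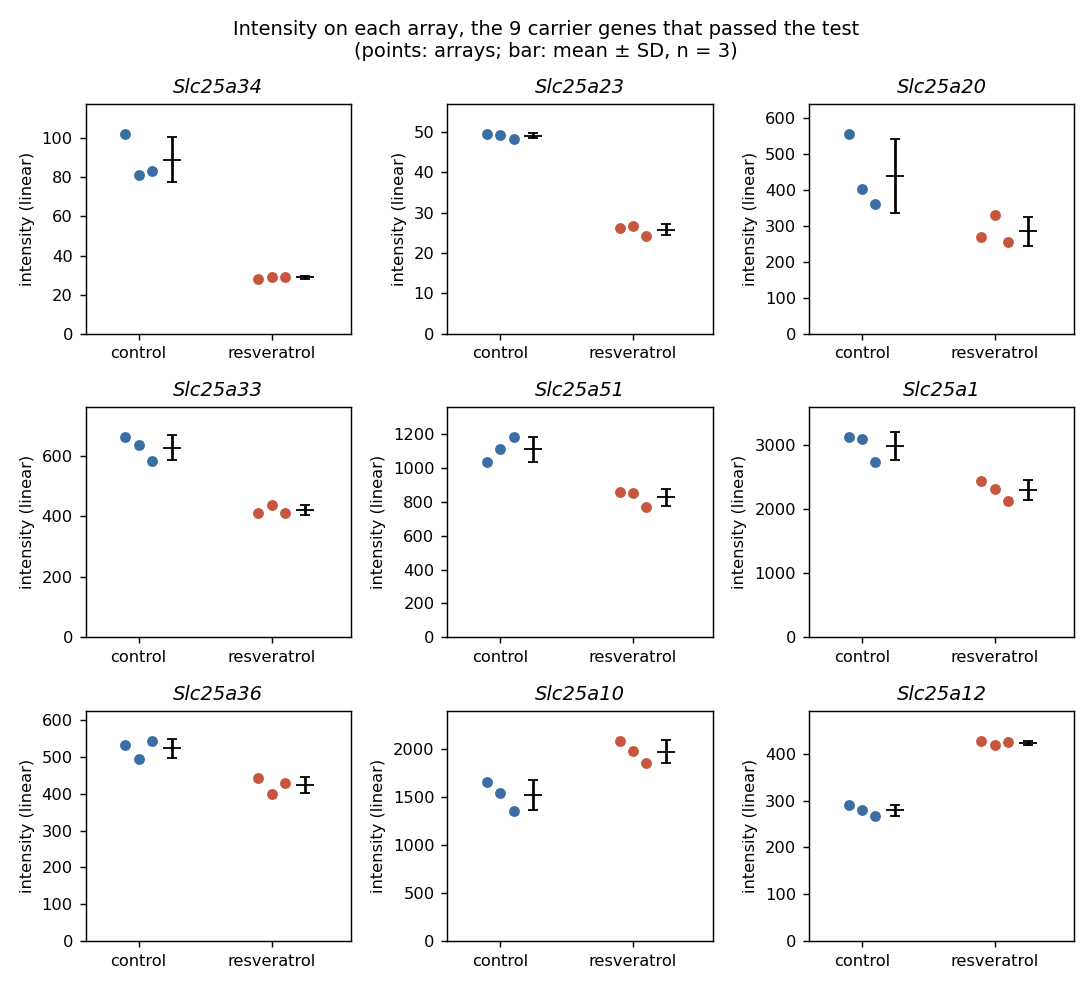
Intensity of the brightest probe set on each array (points; linear axis from 0) for the 9 carrier genes that passed the test, with mean ± SD over 3 arrays. The groups do not overlap in any panel; Slc25a34 has its 3 resveratrol arrays at or below 29.2 and its control arrays at or above 81.3.

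Fat cell genes moved as well, and in a culture, fewer cells of a type and less RNA per cell cannot be told apart. Of 7 tested adipocyte markers (Adipoq, Fabp4, Cidec, Lpl, Cd36, Slc2a4 and Pparg), 3 fell, and none rose. The differences were -1.38 for Slc2a4, the insulin-responsive glucose transporter, -0.57 for Cidec and -0.44 for Cd36. Their summed intensity spanned 33141 to 48910 on the control arrays and 30568 to 37670 on the resveratrol arrays, so the groups overlapped. Of 5 tested preadipocyte and fibroblast markers, Thy1 rose by 0.40 and 4 did not pass, with sums of 18120 to 21370 and 16109 to 19096. Of 5 tested macrophage markers Cd14 rose by 0.47 and 4 did not pass. Their sums were low, at 281 to 358 on the control arrays and 387 to 439 on the resveratrol arrays, and did not overlap. Ptprc, the pan-leukocyte marker, had mean intensities of 10.6 and 6.4. Muscle markers had sums of 119 to 143 and 126 to 165, and 0 of 2 tested passed in limma, with 0 at an unadjusted p under 0.05. Of 3 tested brown fat markers 2 fell, Ppargc1a, a coactivator that drives mitochondrial genes, with -0.60 and Elovl3 with -0.65. The summed brown fat markers spanned 452 to 540.4 and 326 to 342, without overlap, and the defining markers Ucp1 and Cidea were below 16 on every array. The part of these shifts in the carrier results was not tested.

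The 9 probe sets for bacterial and phage spike transcripts were brighter on control replicates 1 and 2 and resveratrol replicate 1, with mean log2 signals of 10.74, 10.73 and 10.51, than on the other arrays, at 9.79 to 10.05. The brighter side holds 2 control arrays and 1 resveratrol array and the dimmer side 1 and 2, so each difference within a side rests on 1 array in 1 of its groups, has no error of its own and was not tested.

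Slc25a34, a carrier whose substrate is not settled, had the most negative difference among the tested members. Its intensities were 102, 81.3 and 83.3 on the control arrays and 28.0, 29.2 and 29.2 on the resveratrol arrays. All treated arrays lay far below all control arrays, and the mean with resveratrol was 32.4% of the control mean. The difference was -1.22 ± 0.14 (SE, n = 3) with limma adjusted p = 0.000469. It was -1.29 within the arrays of brighter spikes and -1.14 within those of dimmer spikes. The size depends on the offset, at -1.59 with an offset of 1 and -0.72 with 64, and the gene passed in all 19 alternative fits. Of the other 6 tested members placed in the outer membrane or without a settled substrate, none passed in limma and 1 had an unadjusted p under 0.05. That was Slc25a46, an outer membrane protein that acts in mitochondrial fission and lipid transfer, with intensities of 554, 683 and 565 in control and 480.5, 468 and 492.5 in treated cells. Its groups did not overlap, at -0.31 ± 0.09 (adjusted p = 0.0598). It passed as a fall in 4 alternatives, namely with the brightest 40% of probe sets, with array weights, with the mean of its probe sets and without control replicate 1 (-0.36, adjusted p = 0.0464). Slc25a45, Slc25a35, Slc25a53, Slc25a48 and Slc25a47 spanned -0.15 to 0.15, with overlapping groups.

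Carriers of nucleotides, cofactors and vitamins held 3 of the 7 falls. Of 8 tested genes 3 fell, none rose and 5 did not pass, and the median was -0.26. Slc25a33 and Slc25a36 both carry pyrimidine nucleotides, which the matrix needs to copy and transcribe mitochondrial DNA. Slc25a33 had intensities of 662, 637 and 583 in control and 412, 438 and 409.7 in treated cells. The treated arrays lay below every control array, at -0.56 ± 0.08 (SE) with limma adjusted p = 0.00146, and the gene passed in all 19 alternative fits. Slc25a36 had 533, 494 and 544 at its brightest probe set in control and 443, 399.5 and 431 in treated cells. That difference was -0.29 ± 0.08 (adjusted p = 0.0424) and was lost in 10 of 19 alternative fits, among them each that left out an array. The next probe set of Slc25a36 read 224, 222 and 216 in control and 132, 136 and 154 in treated cells, a difference of -0.60 ± 0.09 (adjusted p = 0.00306) that passed in all 18 alternative fits it entered. A further, dim probe set had -0.09 and did not pass.

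Slc25a51, the carrier that brings NAD into the matrix, fell from 1036, 1114 and 1183 to 859, 856 and 768, with no overlap. The difference was -0.42 ± 0.08 (SE) with limma adjusted p = 0.00943, and it was lost without an intensity trend. Its other probe sets had -0.21 and -0.50 and did not pass. Slc25a42, which exchanges coenzyme A, had intensities of 273 ± 19.2 and 214.5 ± 22.7 (SD, n = 3), a difference of -0.33 with adjusted p = 0.0654, and passed only with the brightest 40% of probe sets (adjusted p = 0.0481). Slc25a16, linked to coenzyme A supply, had -0.22 (adjusted p = 0.127). In both genes every treated array lay below every control array. Slc25a26, the S-adenosylmethionine carrier, Slc25a32, the folate and FAD carrier, and the peroxisomal Slc25a17 had overlapping groups and differences of -0.13, 0.06 and 0.17. Slc25a32 works beside mitochondrial one-carbon enzymes, of which 1 of 7 tested rose, Shmt2 by 0.46, and 2 fell, Dld by 0.47 and Mthfd1l by 0.38. Shmt2 did not pass without an intensity trend. The call of Mthfd1l (adjusted p = 0.0389) was lost with either block, without a filter or an intensity trend, and with any array but resveratrol replicate 2 left out, at adjusted p = 0.0538 to 0.138.

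Promoters are shown only for falling carriers that hold a searched short sequence: 3 that share one, and Slc25a34, which holds another. Falling members with a promoter window and neither sequence are not shown. RefSeq promoter windows (build GRCm38.p6, 250 bases before to 50 after the start, 5′ to 3′ on the gene's strand) were found for 32 of the 40 tested members, 6 of them falling. The palindrome CACGTG, the E-box bound by several bHLH factors, occurs in 7.15% of all 32851 promoter windows and in 8.09% of genes with a window. It was found in 3 of the 6 falling members (Slc25a33, Slc25a36 and Slc25a1), in 0 of the 2 rising ones, and in 3 of the 24 that did not pass (Slc25a13, Slc25a14 and Slc25a15). The shorter ACGTG, contained in CACGTG and searched on both strands, is in 19.6% of windows and 21.8% of genes, and the same 3 falling members hold it, with 6 of the 24. AAGGTCA, a half-site read by nuclear receptors such as the estrogen-related receptors, is in 4.72% of windows and 5.38% of genes on either strand. Among the 32 tested members with a window it was found in 1, Slc25a34. A match is a description of letters and not of binding. Capitals mark CACGTG in the first 3 sequences, which begins 8, 187 and 239 bases before the start in that order. In the last they mark the reverse complement of AAGGTCA, which begins 119 bases before the start.
Slc25a33, chr4:149774218-149774517, minus strand: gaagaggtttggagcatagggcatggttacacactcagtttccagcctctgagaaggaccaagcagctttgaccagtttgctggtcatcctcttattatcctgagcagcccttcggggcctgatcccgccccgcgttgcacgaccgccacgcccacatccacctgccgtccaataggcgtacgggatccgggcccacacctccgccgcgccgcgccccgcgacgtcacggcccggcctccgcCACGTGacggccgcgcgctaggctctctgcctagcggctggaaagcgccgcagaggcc
Slc25a36, chr9:97110992-97111291, minus strand: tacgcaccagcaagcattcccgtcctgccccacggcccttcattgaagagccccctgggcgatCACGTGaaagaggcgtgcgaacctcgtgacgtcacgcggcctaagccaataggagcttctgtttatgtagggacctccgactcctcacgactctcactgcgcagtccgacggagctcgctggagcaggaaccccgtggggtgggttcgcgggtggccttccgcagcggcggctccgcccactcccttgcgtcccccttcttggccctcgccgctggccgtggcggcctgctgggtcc
Slc25a1, chr16:17928170-17928469, minus strand: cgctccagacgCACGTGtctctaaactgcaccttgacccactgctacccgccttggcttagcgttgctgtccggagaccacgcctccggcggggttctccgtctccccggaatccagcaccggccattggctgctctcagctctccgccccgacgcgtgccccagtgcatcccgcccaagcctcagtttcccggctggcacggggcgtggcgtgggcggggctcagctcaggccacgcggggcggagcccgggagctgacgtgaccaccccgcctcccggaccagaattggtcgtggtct
Slc25a34, chr4:141623785-141624084, minus strand: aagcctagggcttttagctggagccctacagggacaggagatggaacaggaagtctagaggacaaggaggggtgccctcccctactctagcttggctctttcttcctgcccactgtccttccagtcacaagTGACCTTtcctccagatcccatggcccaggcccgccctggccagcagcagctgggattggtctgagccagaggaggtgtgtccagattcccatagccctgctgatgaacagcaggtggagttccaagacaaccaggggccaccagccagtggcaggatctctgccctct

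**Figure D2:**
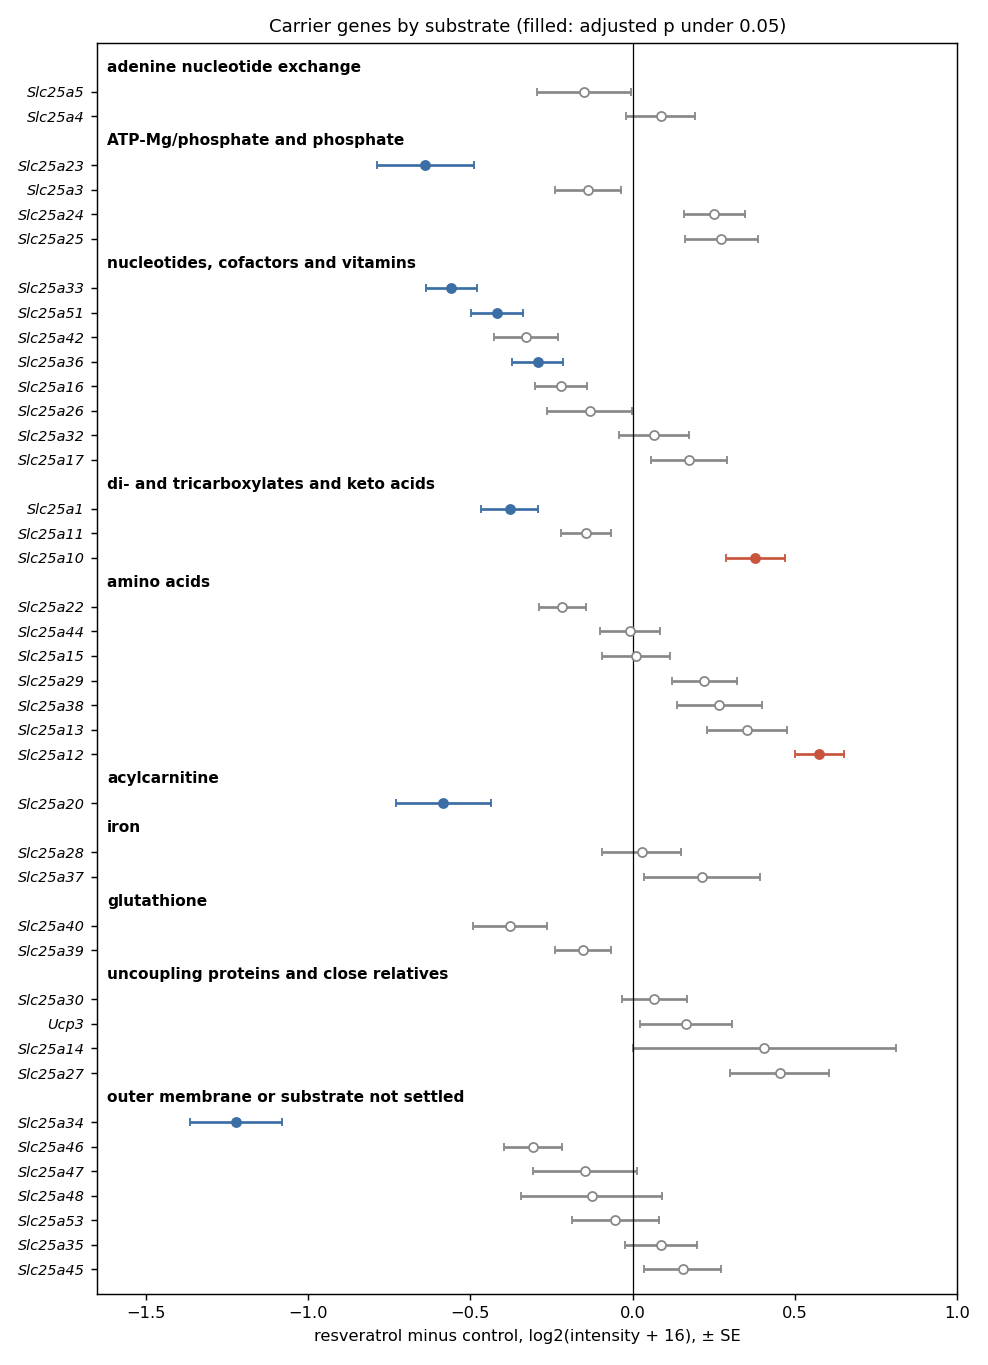
Difference between resveratrol and control on the scale of log2(intensity + 16), ± SE, for the 40 tested carrier genes, grouped by substrate (filled points passed the test). Rises are Slc25a12 and Slc25a10, and the lowest point is Slc25a34 at -1.22.

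Among carriers of di- and tricarboxylates, 1 rose and 1 fell of 3 tested. Slc25a1, the citrate carrier whose promoter is printed above, had intensities of 3126, 3101 and 2746 in control and 2439, 2319 and 2127 in treated cells. The highest treated array lay below the lowest control array, and the difference was -0.38 ± 0.09 (SE, n = 3) with limma adjusted p = 0.0221. It was -0.35 within the arrays of brighter spikes and -0.30 within those of dimmer spikes. The call was lost in 6 of 19 alternative fits, including those without control replicate 1 or 2 and without resveratrol replicate 2 or 3. Slc25a10, which exchanges dicarboxylates such as malate and succinate for phosphate, moved the other way. It had 1660.5, 1544 and 1352 in control and 2086, 1980.4 and 1854 in treated cells, a difference of 0.38 ± 0.09 (adjusted p = 0.027). The call of Slc25a10 was lost in 6 fits, including those without control replicate 2 or 3 and without resveratrol replicate 1 or 2. Its second probe set read 0.30 ± 0.11 (adjusted p = 0.111). Slc25a11, the oxoglutarate/malate carrier, had -0.14 ± 0.08 (adjusted p = 0.31), with overlapping groups and a 95% confidence interval of -0.31 to 0.02.

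Of 8 tested enzymes listed for citrate export and the steps around it, 4 fell and none rose, with a median of -0.41. Acaca, acetyl-CoA carboxylase, changed by -0.64 (adjusted p = 0.000719), Me1, malic enzyme, by -0.49, Fasn, fatty acid synthase, by -0.43, and cytosolic isocitrate dehydrogenase Idh1 by -0.39. The call of Idh1 (adjusted p = 0.0432) was lost with either block, without a filter or an intensity trend, and with any array but control replicate 3 left out, at adjusted p = 0.0535 to 0.162. The Idh1 probe set is of a kind that may cross-hybridise, and the call was also lost where such probe sets were left out. The call of Fasn (adjusted p = 0.0199) was lost without a filter or a trend, and without control replicate 1 or 2 or resveratrol replicate 2 or 3, at adjusted p = 0.053 to 0.0852. The tested enzymes that make citrate or take it as substrate did not pass in the fit reported here. Acly, which splits citrate in the cytosol, had -0.17 (limma unadjusted p = 0.0445, adjusted p = 0.214), with every treated array below every control array. Citrate synthase Cs had -0.27 (unadjusted p = 0.0358, adjusted p = 0.189), with overlapping groups, and passed as a fall without control replicate 3. The cytosolic aconitase Aco1 had 0.10 (adjusted p = 0.554). Acacb, the mitochondrial form of acetyl-CoA carboxylase, was dim and had -0.81 ± 0.24 (SE, adjusted p = 0.0659), with overlapping groups. It passed as a fall with array weights and without resveratrol replicate 3. Among all 68 partner genes tested, 5 rose and 18 fell, which is 33.8%, where 10.6% of all genes tested passed. As rises these were 7.35% of partners against 5.34% of all genes, and as falls 26.5% against 5.21%. These partners, enzymes and channels of the same routes, were listed with the earlier results in view.

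Of 7 tested amino acid carriers, 1 rose and none fell. Slc25a12 and Slc25a13 encode the aspartate/glutamate carriers, which drive the malate-aspartate shuttle. Slc25a12 had intensities of 291, 280.1 and 268 in control and 428, 419 and 425 in treated cells. The treated arrays were tightly grouped and lay above every control array. The mean with resveratrol was 152% of the control mean, and the difference was 0.57 ± 0.08 (SE) with limma adjusted p = 0.00103. It was 0.56 within the arrays of brighter spikes and 0.63 within those of dimmer spikes. The call was lost only with the mean of the gene's probe sets (0.42, adjusted p = 0.0513), of its 19 alternatives. Its other probe sets, both dim, read 0.11 and 0.59 and did not pass. Slc25a13 had 98.7, 134 and 107 in control and 148, 159.9 and 135 in treated cells. These groups did not overlap, at 0.35 ± 0.12 (adjusted p = 0.114), and whether the 2 isoforms differ was not tested.

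Shuttle enzymes gave rises and falls. Got2, the mitochondrial aspartate aminotransferase, rose by 0.43 ± 0.08 (SE, limma adjusted p = 0.00894) from 1685 ± 128 to 2266 ± 90.5 (SD, n = 3). Without an intensity trend Got2 did not pass. Its cytosolic counterpart Got1 had -0.17 (limma unadjusted p = 0.0419, adjusted p = 0.207), with every treated array below every control array. The malate dehydrogenases Mdh1 and Mdh2 had 0.02 and -0.22 with overlapping groups, and Mdh2 passed as a fall without control replicate 3. The glycerol phosphate shuttle moves the same reducing power by another route and needs no Slc25 carrier. Both of its enzymes fell: Gpd1 was at 47% of the control mean, a difference of -1.07 (adjusted p = 0.000154), and Gpd2 at 62.3%, a difference of -0.66 (adjusted p = 0.000661).

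The other amino acid carriers did not pass in the fit reported here. Slc25a22, a glutamate carrier, had 505, 518 and 526 in control and 444, 428 and 454 in treated cells, with no overlap, at -0.22 ± 0.07 (adjusted p = 0.0928). Where each gene was the mean of its probe sets, which leaves fewer tests, the same difference passed (adjusted p = 0.0484). Slc25a29, a carrier of basic amino acids, had 0.22 at its brightest probe set, and its 5 probe sets ran from -0.20 to 0.22. Without resveratrol replicate 3, which read 458 beside 581 and 597, it passed at 0.34 (adjusted p = 0.0418). Slc25a38, the glycine carrier used in haem synthesis, had 0.27 (adjusted p = 0.272), Slc25a15, the ornithine carrier, 0.01 (95% confidence interval -0.22 to 0.24), and Slc25a44, the branched-chain amino acid carrier, -0.01 (-0.21 to 0.19). The 7 tested genes listed as branched-chain amino acid enzymes included 5 falls, with a median of -0.64. Among them the kinase Bckdk, which does not itself break down these amino acids, had -0.27 (adjusted p = 0.0949). Bckdhb and Dbt, subunits of the branched-chain ketoacid dehydrogenase, changed by -0.66 and -0.71, the aminotransferase Bcat2 by -0.72 and isovaleryl-CoA dehydrogenase Ivd by -0.64. Beside the ornithine carrier, 2 of 5 tested enzymes rose, Odc1, ornithine decarboxylase, by 0.60 and Glud1, glutamate dehydrogenase, by 0.49, a call lost without resveratrol replicate 1 (adjusted p = 0.051) and without an intensity trend.

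Slc25a20, the carnitine/acylcarnitine carrier that admits fatty acids to the matrix, fell at both of its probe sets. The brighter one had intensities of 557, 402 and 360.1 in control and 268, 331 and 256 in treated cells. Control replicate 1 stood high, though no treated array reached a control array. The difference was -0.58 ± 0.15 (SE) with limma adjusted p = 0.0336, -0.79 within the arrays of brighter spikes and -0.29 within those of dimmer spikes. With the spike split as a block it was -0.54 (adjusted p = 0.0729), and without control replicate 1 it was -0.41 (adjusted p = 0.0632). The call was also lost without control replicate 2 and without resveratrol replicate 1 or 3. The second probe set was tighter, with 239, 263 and 253 against 161, 179 and 162. Its difference of -0.55 ± 0.09 (adjusted p = 0.00386) passed in all 17 alternative fits it entered, with adjusted p = 0.00982 under the spike block. That probe set is of the kind that may hybridise with more than 1 transcript.

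Of 6 tested carnitine shuttle genes, 2 fell and none rose. Crat, carnitine acetyltransferase, changed by -0.54 (adjusted p = 0.00621) and Cpt2, which reforms acyl-CoA in the matrix, by -0.34 (adjusted p = 0.0372). The call of Cpt2 was lost with the spike split as a block (adjusted p = 0.0661), without a filter or a trend, and without control replicate 1 or 2 or resveratrol replicate 1 or 3. With the mean of its probe sets Cpt2 had -0.01 (adjusted p = 0.947) and Crat -0.51 (adjusted p = 0.127). Cpt1a, which makes acylcarnitine at the outer membrane, had -0.03 with a 95% confidence interval of -0.26 to 0.20. Crot, the peroxisomal carnitine octanoyltransferase, had 0.00 and the carnitine importer Slc22a5 0.26, neither of which passed.

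**Figure D3:**
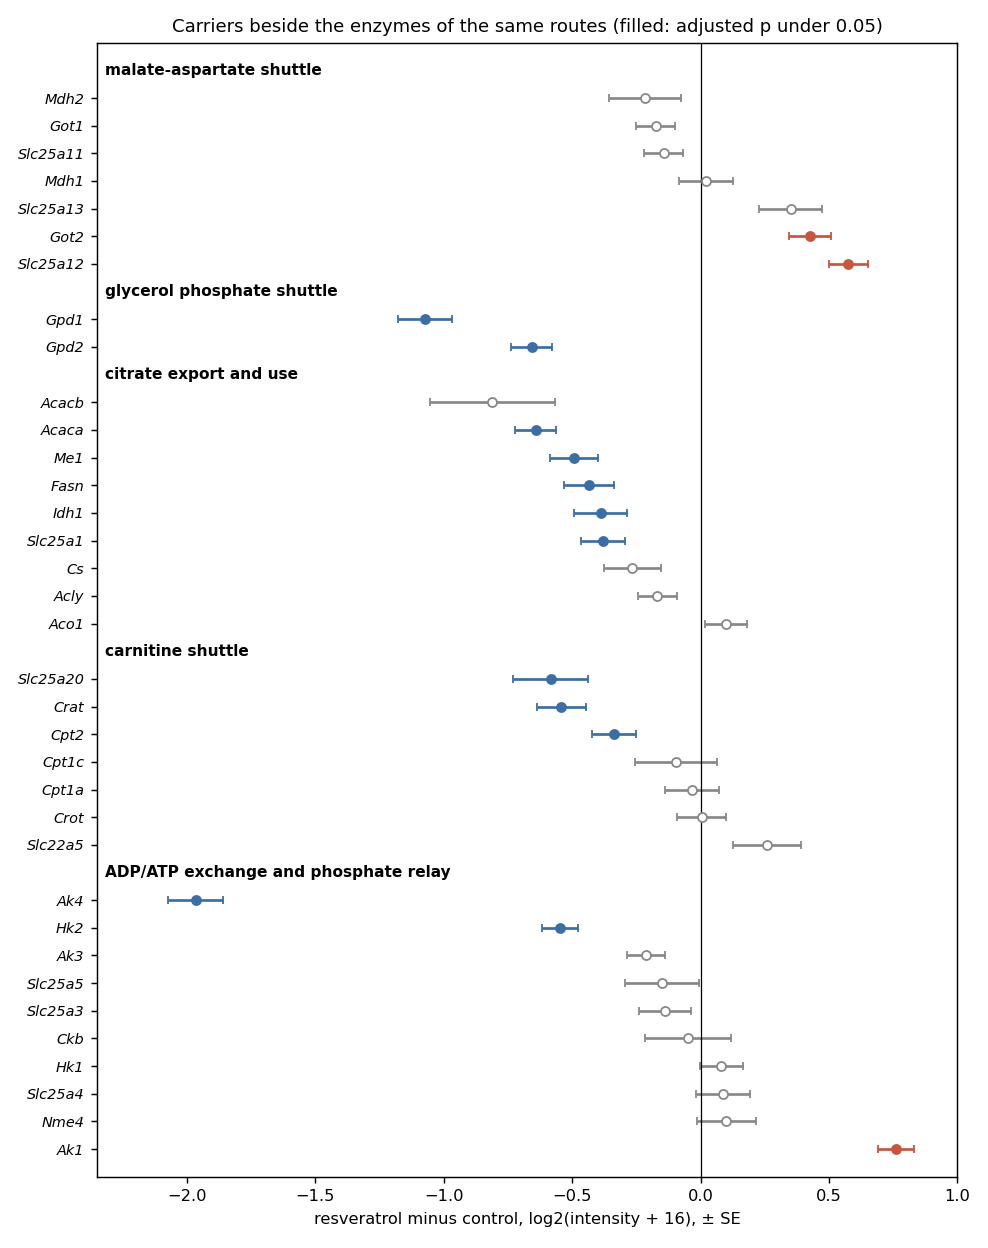
Carriers beside enzymes of the same routes: difference between resveratrol and control on the scale of log2(intensity + 16), ± SE (filled points passed the test). Slc25a12 and Got2 lie right of 0 and both glycerol phosphate shuttle enzymes left of it; Slc25a1 and Slc25a20 lie left, as do Acaca, Me1, Fasn, Idh1, Crat and Cpt2.

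The ADP/ATP translocases, which export the ATP made in the matrix, did not pass, and 0 of 2 tested had an unadjusted p under 0.05. Slc25a4 had 4900, 5522 and 4389 in control and 5766, 4975 and 4952 in treated cells. These overlap, with a difference of 0.09 ± 0.11 (SE, limma adjusted p = 0.715) and a 95% confidence interval of -0.15 to 0.32. Slc25a5 had 7293, 8377 and 5472 in control and 6956, 5867 and 5988 in treated cells. Its control arrays spread more widely than the treated ones, which lay within their range, and the difference was -0.15 ± 0.14 (adjusted p = 0.617; interval -0.47 to 0.16). Slc25a31, the germ cell form, was at or below 0.8 on every array and was not tested.

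Both translocases lie at the bright end of the array, and their values differed with the spike split. Such differences were not particular to the bright end. Between arrays of brighter and dimmer spikes, adjusted for group, the dim probe sets of Slc25a14 and Slc25a37 differed by 0.99 and -0.42. The 4 brightest of the 8 probe sets of Slc25a5 read -0.06 to -0.15, and the other 4 read 0.06 to 0.33. Between arrays of brighter and dimmer spikes the brightest differed by 0.37 and the dimmest by -0.19. With the split as a block the brightest had -0.03 and the dimmest 0.27, and none of the 8 passed. Under quantile normalization the brightest probe set of Slc25a4 read 0.16 (adjusted p = 0.0591), its second 0.15 (adjusted p = 0.045), and the Slc25a5 probe set with control intensities of 2072, 2022 and 2355 read 0.30 (adjusted p = 0.0379). Most Slc25a5 probe sets are of a kind that may cross-hybridise, and RefSeq lists a pseudogene of Slc25a5, so its values are uncertain.

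**Figure D4:**
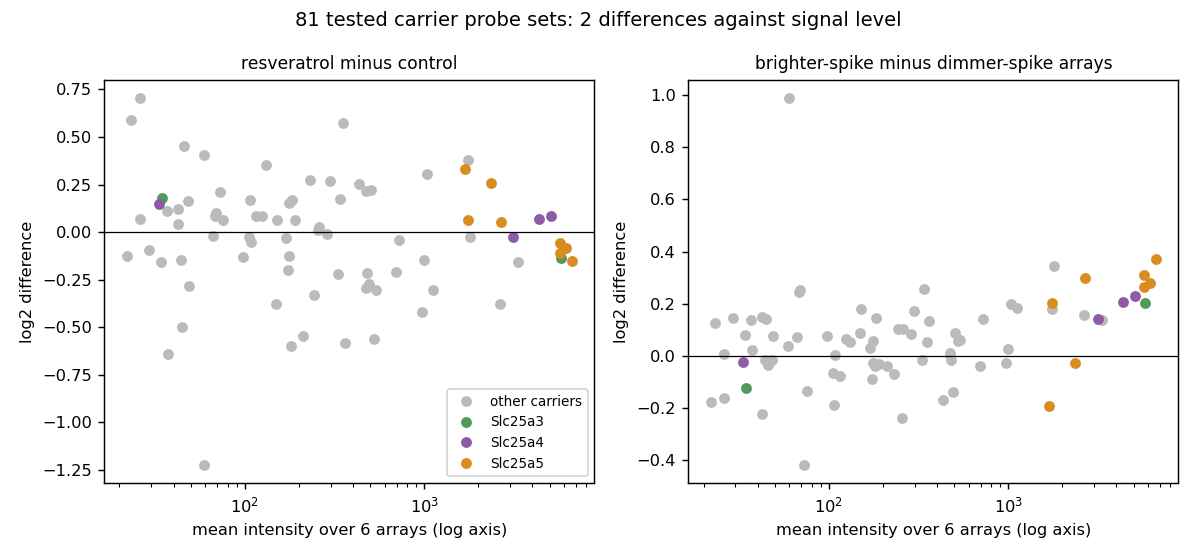
The 81 tested carrier probe sets by mean intensity over 6 arrays (log axis). The left panel shows resveratrol minus control and the right panel arrays of brighter minus dimmer spikes, adjusted for group, both as log2 differences; the brightest probe set of Slc25a5 lies at -0.15 on the left and 0.37 on the right.

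Slc25a3 supplies the phosphate that ATP synthase joins to ADP. Its intensities were 6209, 6659.7 and 5326 in control and 5841, 5289 and 5355 in treated cells, which overlap, at -0.14 ± 0.10 (SE, limma adjusted p = 0.496; 95% confidence interval -0.36 to 0.09). Slc25a23, Slc25a24 and Slc25a25 exchange ATP-Mg for phosphate and so set the adenine nucleotide pool of the matrix. Slc25a23 fell from 49.6, 49.2 and 48.3 to 26.2, 26.8 and 24.3, to 52.6% of the control mean, with tight and well separated groups near the dim end of the array. Its difference was -0.64 ± 0.15 (adjusted p = 0.0246), and -0.63 within either side of the spike split. The call was lost with each single array left out, at adjusted p = 0.0592 to 0.0757, and with the replicate number as a block. Slc25a24 had 0.25 ± 0.10 (adjusted p = 0.142), with no overlap between groups. Slc25a25 had 0.27 ± 0.11 (adjusted p = 0.18) at its brightest probe set. A dim probe set of Slc25a25, of a kind that may cross-hybridise, rose from 14.5, 18.9 and 14.7 to 34.3, 40.4 and 33.8 (adjusted p = 0.0308). That call was lost in 9 of 16 alternative fits, among them each that left out an array. The remaining probe set read -0.02.

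Of 7 tested enzymes that pass on the phosphate of ATP, 1 rose and 2 fell. Ak4, an adenylate kinase of the matrix, changed by -1.97 ± 0.11 (SE, limma adjusted p = 3.39e-06), and hexokinase Hk2 by -0.55. Ak3, another matrix adenylate kinase, had -0.21 (adjusted p = 0.107), with groups apart. Ak1, the cytosolic adenylate kinase, rose by 0.76, from 385 ± 12.2 to 663 ± 18.7 (SD, n = 3).

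Iron and glutathione carriers, and the uncoupling proteins and their relatives, held no call in the fit reported here. The mitoferrins Slc25a37 and Slc25a28, which import iron, had 0.21 ± 0.18 and 0.03 ± 0.12, with overlapping groups, and 0 of 2 had an unadjusted p under 0.05 in limma. Of 9 tested haem and iron-sulphur enzymes 1 fell, Alas1, the first enzyme of haem synthesis, by 0.75 (adjusted p = 0.000252). Of the glutathione carriers, Slc25a39 had -0.15 (adjusted p = 0.338) at its brightest probe set. Another of its probe sets, with groups apart, had -0.30 ± 0.09 (adjusted p = 0.0694) and passed under quantile normalization (adjusted p = 0.0499) and with the replicate number as a block (adjusted p = 0.041). Slc25a40 had 202, 155 and 157 in control and 129, 124 and 129 in treated cells. The groups of Slc25a40 lay apart, at -0.38 ± 0.11 (adjusted p = 0.0688; unadjusted p = 0.00677), and the gene passed where each gene was the mean of its probe sets (adjusted p = 0.0388). Of 4 tested uncoupling proteins and relatives, none passed and 1 had an unadjusted p under 0.05. That was Slc25a27, expressed mainly in brain, with 38.2, 30.6 and 39.6 in control and 57.7, 59.0 and 49.0 in treated cells, at 0.45 ± 0.15 (adjusted p = 0.0984). Ucp3, an uncoupling protein of muscle and brown fat, had 44.8 ± 3.74 and 52.1 ± 4.37 (SD, n = 3) and a difference of 0.16 (adjusted p = 0.573). Slc25a30 had 0.07 ± 0.10. Slc25a14 had 0.40 ± 0.40, a value that rests on control replicate 3, which read 11.4 beside 64.8 and 81.7. Without that array it was -0.16 (adjusted p = 0.787).

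The members with groups that did not overlap numbered 17 of 40, or 42.5%, where 30.2% of all tested genes had groups apart. Of these 17, 12 were lower and 5 higher with resveratrol, where 13.7% of all tested genes lay apart as lower and 16.5% as higher. The 8 that lay apart without passing were Slc25a46, Slc25a42, Slc25a40, Slc25a22, Slc25a27, Slc25a13, Slc25a16 and Slc25a24, with unadjusted limma p from 0.00554 to 0.0227. Where a gene had several tested probe sets, as 21 members did, the probe sets had both signs in 7 genes. In none of these 21 did 1 probe set rise and another fall. The 5 members too dim to be tested were Slc25a2, Slc25a18, Slc25a31, Slc25a41 and Slc25a54. Slc25a54 had 3.8, 3.1 and 3.1 in control and 18.3, 15.8 and 4.2 in treated cells, too dim for a test. In RefSeq it neighbours Slc25a24, Slc25a41 neighbours Slc25a23, and Slc25a47 neighbours Slc25a29, so in the first 2 pairs 1 partner was too dim to be tested.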

How the data were processed

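Gene expression was measured on 6 one-colour arrays of 3T3-L1 cells, 3 control and 3 resveratrol. The authors deposited 1 linear-scale intensity per probe set and array. As read from these values, each column has a mean of 150 after trimming 2% at each end. The summarising software was not given in the sources used here. Per the labels' protocols, RNA was extracted with Trizol and labelled with biotin.

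Values were used as deposited, as log2(intensity + 16). The 64 control probe sets were left out and the brightest 60% by mean intensity over the 6 arrays were tested, 27022 in all. Groups were compared by limma 3.58.1 in R 4.3.3 (lmFit and eBayes, variance trended on intensity, 2-sided), and p-values were adjusted by the Benjamini-Hochberg method across all of them. Symbols came from the platform annotation, and 45 of 45 members matched RefSeq (GRCm38.p6) by Entrez number with 0 symbols differing. Figures were drawn with Python 3.11.15 and matplotlib 3.10.9.

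The members, lists and tests were chosen with earlier results of these data known. Every member gene with a probe set naming it alone is named, which Ucp2 lacks; per-array values are given for those that passed, for Slc25a3, Slc25a4 and Slc25a5, and for some whose groups lay apart, picked after their values were seen. A partner gene is named if it passed with groups apart, up to 4 a list by smallest p, beside route enzymes that did not pass. Alternatives were other normalization, offsets, filters, variance models, array weights, blocks, probe set choices, and leaving out each array.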

Additional observations from a re-analysis of the deposited data

How the results depend on the processing

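Of the 9 carriers that passed, none changed sign in any of its alternatives. Slc25a33 and Slc25a34 passed in all 19, Slc25a12 and Slc25a51 in 18, Slc25a1 and Slc25a10 in 13, Slc25a20 in 12, Slc25a23 in 10 of 18 and Slc25a36 in 9. Member genes rising numbered 2 and falling 7; without a filter on low values these became 1 and 3, and without an intensity trend 1 and 3. Averaging the probe sets of each gene gave 1 rise and 10 falls. Members gained in an alternative were Slc25a46 in 4, and Slc25a22, Slc25a29, Slc25a40 and Slc25a42 in 1 each. Member probe sets rising numbered 3 and falling 9; they became 1 and 5 without a filter, 2 and 5 without an intensity trend, and 5 and 10 under quantile normalization. Partner genes rising numbered 5 and falling 18, and without an intensity trend 2 and 10. The rises lost there were Glud1, Got2 and Shmt2. The falls lost there were Bckdha, Cpt2, Crat, Fasn, Idh1, Ivd, Me1 and Mthfd1l. Leaving out 1 array gave 1 to 3 member genes rising and 3 to 5 falling, 1 to 3 probe sets rising and 5 to 8 falling, and 4 to 5 partner genes rising and 14 to 20 falling. The labels link samples across groups only by a replicate number. Deviations of same-numbered samples from their group means correlated at -0.06, -0.01 and 0.09. Only for control replicate 3 was the same-numbered resveratrol sample the best match. Such correlations cannot show whether same-numbered samples shared a culture or batch, which was not tested. With the replicate number as a block, 2 member genes rose and 5 fell, 2 probe sets rose and 8 fell, and 5 partner genes rose and 16 fell. Over all probe sets, 848 passed without an intensity trend, 1396 without a filter, and 1115 to 1949 with 1 array left out, against 2220. The cause of these changes was not tested; a fit without a filter adjusts over 45037 probe sets, and a fit without an array has fewer samples. For members that passed in no fit, a change of sign was not counted. Intensities near the offset of 16 limit what can be read from dim probe sets.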

Other observations

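Other channels and carriers of the mitochondrial membranes, listed beside the Slc25 genes, held no call. Of 13 tested, 0 passed in limma and 3 had an unadjusted p under 0.05. These were Mpc1, a subunit of the mitochondrial pyruvate carrier, at -0.21 ± 0.07 (SE, adjusted p = 0.113), the sideroflexin and serine carrier Sfxn1 at -0.22 ± 0.08 (adjusted p = 0.107), and the sideroflexin Sfxn5 at -0.28 ± 0.10 (adjusted p = 0.132). In all 3 every treated array lay below every control array. The list spanned -0.28 to 0.20, with a median of -0.12. The outer membrane channels Vdac1, Vdac2 and Vdac3 had -0.19, -0.12 and 0.04 with overlapping groups, and the calcium channel Mcu had 0.00 with a 95% confidence interval of -0.26 to 0.26. Other settings passed Vdac1 without control replicate 3 and Sfxn1 with the mean over its probe sets.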
